A study of Mus musculus with 2 samples.

Results

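The 7 microRNA genes described here make up the mouse Mir23-27-24 clusters. Mir23b, Mir27b and Mir24-1 lie on chromosome 13, with Mir3074-1 on the strand opposite to Mir24-1, and Mir23a, Mir27a and Mir24-2 lie on chromosome 8. They were chosen by gene symbol, and 6 of the 7 have an entry among the 1973 genes of the count tables. Mir24-1 has no entry. The tables come from microRNA sequencing of total RNA, with inserts below 30 bases, from whole livers of 2 newborn pups of mouse strain B6NCrl at postnatal day 0. Pup 1 and pup 2 came from the same pregnant female, each gave 1 liver and 1 library, and sex was not recorded. No treatment, mutation or second tissue or age is part of the data, so the comparisons run between the clusters within each liver and between the pups.

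A microRNA is cut from a hairpin RNA as a short mature strand, taken from the 5′ side (5p arm) or the 3′ side (3p arm), and it represses messenger RNAs that pair with its seed, bases 2 to 8. The clusters are a duplicated set: each copy is transcribed as 1 primary RNA that carries a miR-23, a miR-27 and a miR-24 hairpin in that order. They are known for abundant expression in endothelial cells and roles in vessel growth, and miR-27 is known as a repressor of genes of lipid metabolism and fat cell formation. In fetal mouse liver, the microRNAs of the chromosome 13 cluster are known to repress Smad genes and so to favour hepatocyte over bile duct differentiation. In human cells, miR-23a is known to repress glutaminase, and miR-24 to repress cell cycle genes.

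The mature arms on the 3p side are shown because they carry the seeds by which the families are defined. For miR-23 and miR-27 these arms also hold the bases by which the copies can be told apart. The 5p arm of Mir3074-1 is shown with them because it is read from the strand opposite to miR-24-3p. All 7 hairpins and 12 mature arms of these genes were matched by symbol in RefSeq tables on GRCm38.p6, whose chromosome coordinates are those of mm10. miR-23b-3p and miR-3074-1-3p had no entry of their own. Capitals mark the seed, and each sequence runs 5′ to 3′.
miR-27b-3p (Mir27b, chr13:63300760-63300780, plus strand): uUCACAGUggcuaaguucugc
miR-27a-3p (Mir27a, chr8:84208727-84208747, plus strand): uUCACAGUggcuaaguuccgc
miR-23a-3p (Mir23a, chr8:84208563-84208583, plus strand): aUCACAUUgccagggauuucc
miR-24-3p (Mir24-1, chr13:63301251-63301272, and Mir24-2, chr8:84208875-84208896, plus strand): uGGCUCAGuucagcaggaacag
miR-3074-5p (Mir3074-1, chr13:63301249-63301270, minus strand): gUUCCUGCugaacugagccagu

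The copies of miR-27-3p differed by 1 substitution in 21 bases, U19C, with the base of miR-27b-3p first and positions counted from the 5′ end. The first 18 bases of both arms, seed included, were the same. Both copies of miR-24-3p were the same over all 22 bases, so a read of that arm maps to both chromosomes. The counts hold only reads that map to a single locus, and such a read was given to no gene. For the miR-23 pair the hairpins are shown whole, with the longest stretch they share in capitals.
Mir23b hairpin (chr13:63300484-63300557, plus strand): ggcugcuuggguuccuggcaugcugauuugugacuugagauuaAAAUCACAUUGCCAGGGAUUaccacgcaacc
Mir23a hairpin (chr8:84208518-84208592, plus strand): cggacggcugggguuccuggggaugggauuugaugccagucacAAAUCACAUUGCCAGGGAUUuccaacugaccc

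The Mir23 hairpins shared a stretch of 20 bases, and the base just after it was A64U, with the Mir23b base first and positions counted from the start of the hairpin. That base is position 19 of miR-23a-3p, so the first 18 bases of miR-23a-3p were also present in the Mir23b hairpin. Reads of the Mir23 and Mir27 3p arms that end at or before position 18 could therefore not be assigned to 1 chromosome. The Mir27 hairpins also shared 20 bases and the Mir24 hairpins 28 bases. All 7 members shared at least 20 bases with a hairpin elsewhere, against 12.7% of the 1005 hairpins in the RefSeq table. Copies of a duplicated set were chosen, so this sharing was fixed by the choice. For the Mir23 and Mir27 genes the shared stretch was no longer than 20 bases. The 5p arms of the Mir24 copies shared their first 16 bases and then differed, and they are shown because they are the part of the Mir24 genes that can be assigned.
miR-24-1-5p (Mir24-1, chr13:63301213-63301235, plus strand): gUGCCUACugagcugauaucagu
miR-24-2-5p (Mir24-2, chr8:84208839-84208860, plus strand): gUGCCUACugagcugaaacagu

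In the genome, the chromosome 13 cluster is the longer one, at 792 bases from the start of Mir23b to the end of Mir24-1, against 404 bases from Mir23a to Mir24-2 on chromosome 8. The gap between the Mir23 and Mir27 hairpins was 154 bases on chromosome 13 and 79 bases on chromosome 8, and that between Mir27 and Mir24 was 423 bases on chromosome 13 and 56 bases on chromosome 8. GENCODE M21 places the whole chromosome 13 cluster inside the protein-coding gene 2010111I01Rik on the same strand and inside Fancc on the opposite strand. Mir23b overlapped no exon of 2010111I01Rik and is intronic. Mir27b lay wholly within an exon of its transcript 2010111I01Rik-209, and Mir24-1 wholly within an exon of 2010111I01Rik-205, both annotated as targets of nonsense-mediated decay. On chromosome 8, Mir23a and Mir27a overlapped no other gene. Mir24-2 overlapped Mir3074-2 on the opposite strand over 83 bases, and the first 2 bases of the long noncoding RNA gene Gm26532.

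**Figure D1:**
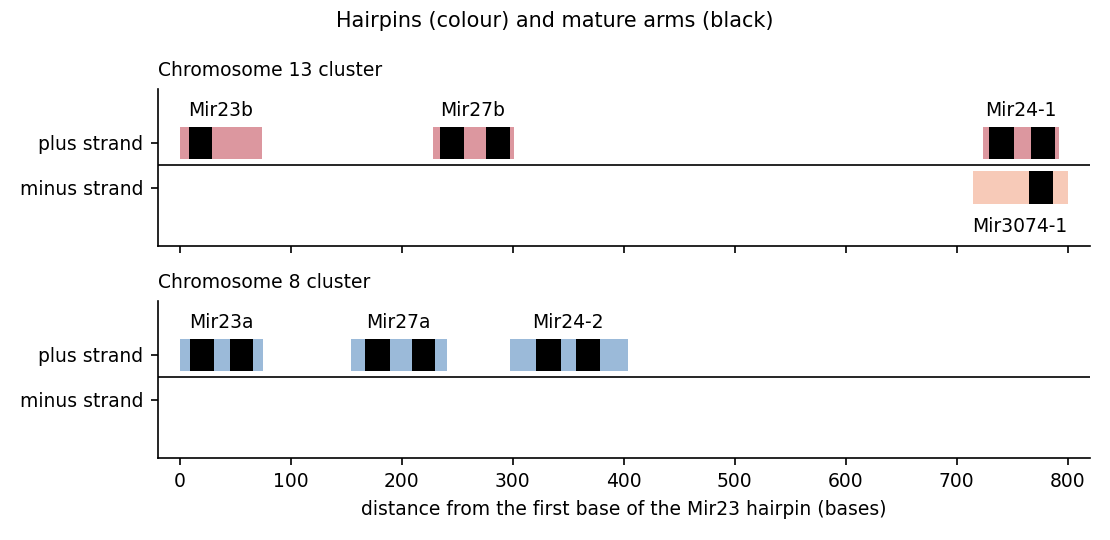
Hairpins (coloured bars) and the mature arms listed by RefSeq (black) of the chromosome 13 and chromosome 8 clusters, by strand, against distance in bases from the first base of the Mir23 hairpin. The chromosome 13 cluster spans 792 bases and the chromosome 8 cluster 404 bases, and Mir3074-1 lies on the minus strand over Mir24-1.

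The libraries held 3422622 gene-strand counts in pup 1 and 4538427 in pup 2, and levels are counts per 1000000 of these (CPM). Reads at several loci, which are on no gene, were 25.2% of all reads in pup 1 and 24.7% in pup 2. Mir122, the hepatocyte microRNA used here to check the tissue, stood at 342309 CPM in pup 1 and 354939 CPM in pup 2. A count of 0 allows up to 0.877 CPM in pup 1 and 0.661 CPM in pup 2. Intervals are 95% intervals. Like these limits, they describe counting error alone, because PCR copies of 1 molecule count as separate reads.

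Both clusters were expressed in the newborn liver, and nearly all of their assigned reads came from the miR-23 genes. Mir23b, Mir23a, Mir27b, Mir27a and Mir24-2 together held 2.51% ± 0.00780 of the microRNA counts (SD, n = 2 pups). The Mir23 genes made up 91.6% of that in pup 1 and 90.8% in pup 2. Each level refers to a whole hairpin entry, so the arms were not told apart. Inserts of this size hold a mature arm whole, so CPM was not divided by length, and values per 100 bases of hairpin are given where genes are compared.

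Mir23b (ENSMUSG00000065599.1), the miR-23 gene of chromosome 13, had 42869 counts in pup 1 and 56784 in pup 2. Its level was 12525 CPM in pup 1 and 12512 CPM in pup 2, a mean of 12518.5 ± 9.45 CPM, and it ranked 15 among all genes by mean. The pups were nearly equal. Mir322 and Mir143, the 2 genes directly above it, stood at 14275 ± 339 CPM and 14225 ± 555 CPM. Their pups did not overlap with those of Mir23b. Mir431 and Mir30e, directly below at 11840 ± 1440 CPM and 11799 ± 1471 CPM, had values on both sides of it and were not separated from it.

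Mir23a (ENSMUSG00000065611.1), the miR-23 gene of chromosome 8, had 35665 counts in pup 1 and 46935 in pup 2. Its level was 10420.4 CPM in pup 1 and 10342 CPM in pup 2, and it ranked 20. The pups were close to each other, and both lay below both values of Mir23b.

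Mir27b (ENSMUSG00000065475.1), on chromosome 13, was much weaker than Mir23b. It had 5056 counts in pup 1 and 7541 in pup 2, or 1477 CPM and 1662 CPM, and ranked 67. Mir376c, Mir144, Mir433 and Mir381, its neighbours in rank, had levels between 1519 ± 302 CPM and 1614 ± 137 CPM that overlapped with it. Mir27a (ENSMUSG00000065444.1), its copy on chromosome 8, had 1281 counts in pup 1 and 1848 in pup 2, or 374 CPM and 407 CPM, and ranked 119.

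Mir24-2 (ENSMUSG00000065541.1), on chromosome 8, had 854 counts in pup 1 and 1065 in pup 2, or 249.5 CPM and 235 CPM, and ranked 139. It can hold reads of the 5p arm and 3p reads that run past the stretch shared with Mir24-1, so it gives no level for miR-24-3p. Mir3074-1 (ENSMUSG00000092741.1) is read from the strand opposite to Mir24-1, and the reverse complement of the Mir24-1 hairpin occupies bases 9 to 76 of its own. It had 216 counts in pup 1 and 249 in pup 2, or 63.1 CPM and 54.9 CPM. The 5p arm of Mir3074-1 was found whole in hairpins on both chromosomes, so its reads were also on no gene.

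Reads at the place of Mir24-1 were visible only as opposite-strand counts of the Mir3074-1 entry, which covers it. They numbered 100 in pup 1 and 108 in pup 2, or 29.2 CPM and 23.8 CPM. In pup 1 the Mir3074-1 strand held 2.16 times as many assigned reads (interval 1.70 to 2.77). In pup 2 it held 2.31 times as many (1.83 to 2.92). Among assigned reads the minus strand was thus above the plus strand in both libraries. Reads of arms found whole on both chromosomes are left out on each strand, so the order of the full strands was not tested. The identifiers of the 3 chromosome 13 entries carry an earlier version number than in GENCODE M21, from which positions and strands were taken, and the positions of the earlier versions were not compared.

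By mean level of assigned reads the order was Mir23b, Mir23a, Mir27b, Mir27a, Mir24-2, Mir3074-1 and the reads at the place of Mir24-1. Reads of the arm shared by Mir24-1 and Mir24-2 are on no gene, so the full levels of these genes cannot be placed in this order. No neighbours in this order overlapped in their pup values, and each gap was larger than the sum of the 2 SDs. The closest pair, Mir3074-1 and the place of Mir24-1, lay 32.5 CPM apart against a sum of SDs of 9.66 CPM. Mir23b and Mir23a lay 2137 CPM apart against 65.1 CPM. An SD over 2 pups can fall below counting error, as it did for these genes. In pup 1 the counting intervals were 12407.6 to 12643.6 CPM for Mir23b and 10313.1 to 10528.5 CPM for Mir23a, which did not overlap.

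**Figure D2:**
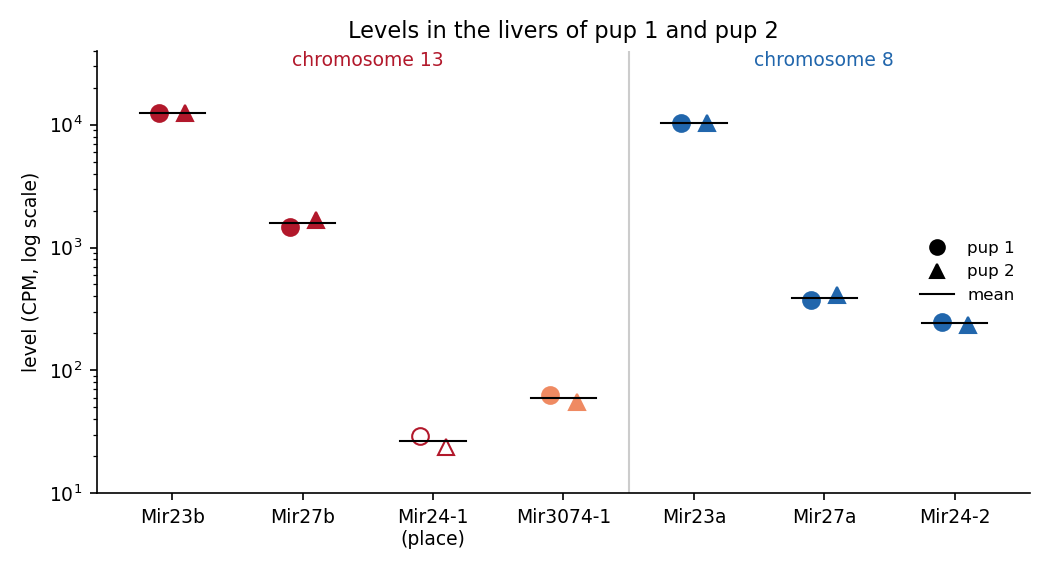
Level in CPM (log axis) of each gene of the chromosome 13 and chromosome 8 clusters in pup 1 (circles) and pup 2 (triangles), with the mean over the 2 pups as a line. Open symbols are opposite-strand reads of the Mir3074-1 entry, which lie at the place of Mir24-1. By assigned reads, the pair of Mir23 genes stands above all other members on both chromosomes, and Mir27b stands above Mir27a. Reads of the arm shared by Mir24-1 and Mir24-2 are on no gene, so neither level includes them.

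The question set by the duplication was how the copies compare. The chromosome 13 copy was higher than the chromosome 8 copy for miR-23 and, by far more, for miR-27. Summed over its entries without Mir3074-1, the chromosome 13 cluster reached 14002 CPM in pup 1 and 14173 CPM in pup 2, while the chromosome 8 cluster reached 11044 CPM in pup 1 and 10983.5 CPM in pup 2. The ratio of chromosome 13 to chromosome 8 was 1.27 (interval 1.25 to 1.29) in pup 1 and 1.29 (1.28 to 1.31) in pup 2. Its mean was 1.28 ± 0.0160 (SD, n = 2), with both pups above 1. With 2 pups, the smallest two-sided p of an exact sign-flip permutation is 0.5, which this ratio and each pair of copies had, so sizes are set against the spread between the pups.

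Mir23b was 1.20 times Mir23a (1.19 to 1.22) in pup 1 and 1.21 times (1.20 to 1.22) in pup 2, a mean of 1.21 ± 0.00555. Of the assigned miR-23 reads, 54.6% in pup 1 and 54.7% in pup 2 were thus from chromosome 13. Mir27b was 3.95 times Mir27a (3.71 to 4.20) in pup 1 and 4.08 times (3.88 to 4.30) in pup 2, a mean of 4.01 ± 0.0945, and 79.8% and 80.3% of the assigned miR-27 reads came from chromosome 13. Per 100 bases of hairpin the mean ratios were 1.22 for the Mir23 pair and 4.78 for the Mir27 pair.

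The excess of chromosome 13 was unequal between the families. The Mir27 ratio divided by the Mir23 ratio was 3.28 in pup 1 and 3.37 in pup 2, a mean of 3.33 ± 0.0631, far from 1 against that spread. The Mir24 pair pointed the other way. Reads at the place of Mir24-1 were 0.117 times those of Mir24-2 (0.0942 to 0.144) in pup 1 and 0.101 times (0.0824 to 0.124) in pup 2. This ratio compares assigned reads only, which leave out miR-24-3p on both chromosomes.

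Within a cluster, the hairpins are carried by 1 primary RNA, yet their assigned levels differed widely. On chromosome 13, Mir23b was 8.48 times Mir27b (8.24 to 8.73) in pup 1 and 7.53 times (7.35 to 7.71) in pup 2. On chromosome 8, Mir23a was 27.8 times Mir27a (26.3 to 29.5) in pup 1 and 25.4 times (24.2 to 26.6) in pup 2. Mir23b made up 88.9% ± 0.830 of the chromosome 13 sum and Mir23a made up 94.3% ± 0.138 of the chromosome 8 sum. Mir27a was 1.5 times Mir24-2 (1.37 to 1.64) in pup 1 and 1.74 times (1.61 to 1.87) in pup 2. Levels of different microRNAs are not corrected for unequal ligation or capture of their sequences, which was not tested.

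Other related microRNAs give a scale for these ratios. Of 7 other pairs, the one nearest to 1 was Mir30e over Mir30a at 0.773 ± 0.0153. The ratio was 7.23 ± 0.226 for Mir181a-1 over Mir181a-2 and 2.05 ± 0.258 for the neighbours Mir221 and Mir222. It was 0.464 ± 0.0352 for Mir15b over Mir15a, 0.440 ± 0.00441 for Mir99b over Mir99a, 0.330 ± 0.0436 for Mir106b over Mir17 and 0.133 ± 0.00577 for Mir29c over Mir29a. By assigned reads, the Mir23 pair lay closer to equality than each of these 7 pairs. The Mir27 pair was farther from equality than Mir221 and Mir222 and less far than the Mir181a and Mir29 pairs. These are descriptions over 2 pups with no test. Whether any of the 7 pairs shares an arm whose reads are on no gene was not tested.

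**Figure D3:**
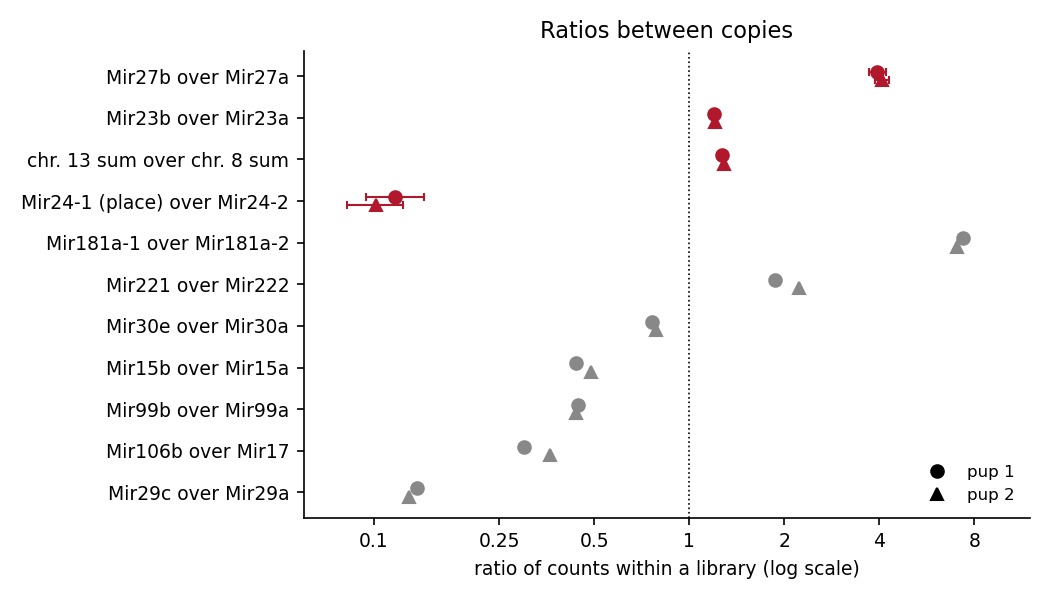
Ratio of counts within a library (log axis) for the Mir23-27-24 copies (red, chromosome 13 over chromosome 8, with exact 95% counting intervals) and for 7 other pairs of related microRNAs (grey), in pup 1 (circles) and pup 2 (triangles). The dotted line marks equality. Mir27b over Mir27a lies near 4 and Mir23b over Mir23a near 1.2 in both pups.

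Outside the clusters, no other mature mouse microRNA in the RefSeq table shares the seed of miR-27-3p or miR-23a-3p at the same bases. miR-128-3p carries the 7 seed letters of miR-27-3p 1 base nearer to its 5′ end, marked in capitals here.
miR-128-3p (Mir128-1 and Mir128-2): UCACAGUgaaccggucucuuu
Mir27b and Mir27a together reached 1851.5 CPM in pup 1 and 2069 CPM in pup 2. That was 19.4 and 19.3 times the assigned reads of Mir128-1 and Mir128-2 together. Both Mir128 hairpins hold the same miR-128-3p, so reads of that arm map to both and are on no gene. The sum leaves them out, so the level of miR-128-3p was not compared. Mir6413, Mir6410, Mir6369 and Mir5124b hold the seed of miR-24-3p and were at 0 counts in both libraries.

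Between the pups, most members were not called different. Of the 6 members tested, 1 was called, Mir27b, which was lower in pup 1. The test was a two-sided exact binomial test on the reads of the 2 libraries, with Benjamini-Hochberg adjustment over all genes tested. It compares these libraries and not conditions. Over all 390 genes with at least 10 counts, it called 30.3%, with 14.4% higher and 15.9% lower in pup 1. That share was 17.1% of genes with at least 1 count and 46.4% of those with at least 100 counts. Regardless of sign, the log2 ratio had a median of 0.11 over the 6 members, against 0.19 over all genes tested and 0.12 over the 221 genes that reached 100 counts in each pup, as every one of the 6 members did. The members thus lay near the median of well-counted genes.

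The log2 ratio of pup 1 over pup 2 was -0.17 for Mir27b (interval -0.22 to -0.12, adjusted p = 7.1e-10 by the exact binomial test), which is 0.889-fold. Mir27a had -0.12 (-0.23 to -0.018), with an adjusted p of 0.0659 by the same exact test. Both miR-27 genes thus had lower values in pup 1, and their sum had a log2 ratio of -0.16 (-0.21 to -0.11). For Mir23b the log2 ratio was 0.0015 (-0.017 to 0.020) and for Mir23a 0.011 (-0.0090 to 0.031). Mir24-2 had 0.089 (-0.043 to 0.22) and Mir3074-1 had 0.20 (-0.068 to 0.47). The negative binomial exact test of edgeR, which takes the spread between the pups as noise, called 0.513% of the same genes and no member, with 0.516 as the smallest unadjusted p among the 6 members.

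Levels of marker microRNAs of several cell types also differed between the pups, in both directions. The vascular list Mir126a, Mir221, Mir222 and Mir139 summed to 72162 CPM in pup 1 and 75181 CPM in pup 2. Of these 4 genes, Mir139 was higher in pup 1, Mir126a was lower, and 2 were not called. Over all genes tested 30.3% were called, and 46.4% of those with at least 100 counts, a minimum all 4 reached. The median log2 ratio of the 4 was -0.010. The hepatocyte list summed to 354080 and 366126 CPM, the leukocyte list to 9973 and 9092 CPM, the erythroid list to 5309 and 5150.02 CPM and the mesenchymal list to 14984 and 15778 CPM in pup 1 and pup 2. Within the hepatocyte list only Mir122 was lower in pup 1, while Mir192 and Mir194-2 were higher, with log2 ratios of 0.028 and 0.22. Within the erythroid list Mir451a was higher in pup 1, Mir144 was lower and Mir486 was not called. Of the leukocyte list, Mir223 and Mir342 were higher in pup 1, Mir150 was lower, Mir155 was not called and Mir142 has no entry. The muscle list summed to 136 CPM in pup 1 and 1008 CPM in pup 2. Its Mir1a-1 was at 0 in both libraries, and whether the arms of Mir1a-1 are shared with another hairpin was not tested. Nearly all of the sum was Mir206, at 136 CPM in pup 1 and 1004 CPM in pup 2. Mir206 (log2 ratio -2.88) and Mir133b (-3.91, from 1 and 20 counts) were both called lower in pup 1. The part of any of these lists in the Mir27b difference was not tested, and in whole liver fewer cells of a type and less RNA per cell cannot be told apart.

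Set against the same lists, Mir23b stood far below the leading microRNA of vessels. Mir126a, the endothelial microRNA of the Egfl7 gene, was 5.27 times Mir23b (5.21 to 5.32) in pup 1 and 5.53 times (5.48 to 5.58) in pup 2. Mir139 had 5713 CPM in pup 1 and 5528 CPM in pup 2, and Mir221 had 306 CPM and 331 CPM. Mir23b thus lay above each gene of the vascular list with an entry except Mir126a, and Mir126b has no entry.

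Among 11 microRNAs known, with miR-27b, to act on lipid or cholesterol genes, 2 were higher in pup 1, 3 were lower and 6 were not called, beside 14.4% higher and 15.9% lower over all genes tested. Their median log2 ratio was -0.12, against -0.0022 over all genes tested. Mir148a, a repressor of the LDL receptor, and Mir223 were higher in pup 1, at 3694 and 8567 CPM in pup 1 and 3306 and 7846 CPM in pup 2. Mir144, an erythroid microRNA that represses the cholesterol exporter Abca1, was lower, at 1374 CPM in pup 1 and 1786 CPM in pup 2. Mir122 and Mir30c-2 were the other two that were lower. Mir33, the intronic microRNA of the cholesterol regulator Srebf2, had 52.0 CPM in pup 1 and 57.9 CPM in pup 2 and was not called. Mir27b stood below Mir148a and above Mir33 in both pups.

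The chromosome 13 sum had a log2 ratio of -0.018 between the pups. Among 75 genes with a mean of at least 1000 CPM, Mir455 (-0.017), Mir487b (-0.018) and Mir99a (-0.025) had the log2 ratios nearest to it. This likeness rests on 2 libraries and is a description only.

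**Figure D4:**
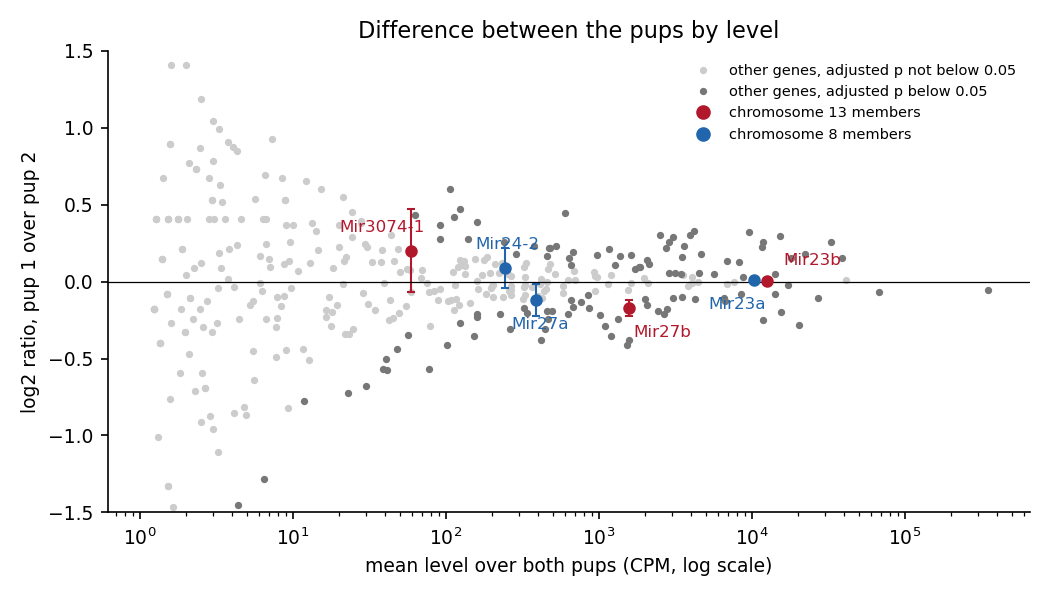
Log2 ratio of pup 1 over pup 2 against mean level in CPM (log axis) for the genes tested, with the members of the chromosome 13 and chromosome 8 clusters in colour with exact 95% counting intervals. Dark grey points have an adjusted p below 0.05 in the exact binomial test. Mir23b and Mir23a lie on 0 and Mir27b lies below it, and 12 genes lie outside the range shown.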

How the data were processed

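The authors deposited, for each library, unnormalized read counts for every microRNA gene. Deposited text names the mm10 assembly and annotation M4. Which aligner, counter and adapter trimming were used is not given in the sources used here. The columns have no header. The 3 count columns were read as without strand, on the gene strand and on the opposite strand, since for each gene the first is the sum of the others. Gene-strand counts were used. Uniquely mapped reads not counted on a gene's own strand, 8.87% in pup 1 and 9.92% in pup 2, stayed out of library sizes and tests. Opposite-strand counts of the entries came to 4.44% and 4.25% of uniquely mapped reads.

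Symbols and positions came from GENCODE M21, which named 1894 of 1973 identifiers. CPM, ratios and exact Clopper-Pearson intervals were computed with Python 3.11.15 and scipy 1.17.1. The quasi-likelihood test needs replicates within groups and was not possible. The exact binomial test at an adjusted p of 0.05 was checked on simulated data that held counting error only. That check does not cover the spread between pups. The negative binomial test used edgeR 4.0.16 with the common dispersion (coefficient of variation 0.130), and DESeq2 1.42.0 gave size factors.

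The members and lists were chosen with earlier results of these data known. Genes named are the members, related pairs, seed matches and the 2 genes above and below Mir23b and Mir27b in rank. The 3 genes nearest in log2 ratio are also named. Of each list, up to 4 genes with an entry are named, and more of the lipid list. Planned matching to a genome was replaced by matching to RefSeq hairpins. Alternatives were counts without strand, other library sizes and scalings, other count minimums, division by hairpin length, leaving out Mir24 or a pup and adding Mir3074-1. Adding the reads at the place of Mir24-1 was chosen after seeing the data. The p-values of the exact binomial test set the reads of 2 littermates against counting error only.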

Additional observations from a re-analysis of the deposited data

Results flagged for a closer look

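Reads outside the gene-strand counts stood above the limit of 3 counts that a count of 0 allows at 2 members. On the opposite strand of Mir3074-1, where Mir24-1 lies, there were 100 reads in pup 1 and 108 in pup 2. They made up 31.6% and 30.3% of all reads at that entry. On the opposite strand of Mir27b there were 4 reads in pup 2 and 0 in pup 1. The opposite strand of Mir24-2, where Mir3074-2 lies, held 0 reads in both pups, which allows up to 0.877 CPM in pup 1 and 0.661 CPM in pup 2.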

How the results depend on the processing

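The ratio of chromosome 13 to chromosome 8 stayed above 1 for the sums, the Mir23 pair and the Mir27 pair, and below 1 for the Mir24 pair, under every alternative run. The ratio of sums was 1.31 per hairpin length and 1.31 without the Mir24 genes, and it ranged from 1.27 to 1.29 with 1 pup left out. Per hairpin length the Mir23, Mir27 and Mir24 ratios were 1.22, 4.78 and 0.138. For the Mir24 ratio, the length of Mir3074-1, the entry that holds the reads, was used in place of that of Mir24-1. With 1 pup left out the Mir23, Mir27 and Mir24 ratios ranged from 1.20 to 1.21, from 3.95 to 4.08 and from 0.101 to 0.117. The chromosome 13 sum was 13444 CPM from counts without strand, 12764 CPM per uniquely mapped read and 21631 CPM without Mir122 in the library size, and the chromosome 8 sum was 10510.2, 9979 and 16910 CPM. These follow from the library size used. Left-out pups gave 14002 to 14173 CPM and 10983.5 to 11044 CPM. The count of genes that differ between the pups was 118, 112 to 123 under other scalings, strands and minimums, and 2 under the negative binomial exact test of edgeR, where Mir27b had an adjusted p of 1. As a share of the genes tested, it was 17.1% at a minimum of 1 count and 46.4% at 100 counts. Mir27b was called under each other scaling, library size and strand alternative run. Mir27a was called only without Mir122 in the library size (log2 ratio -0.15, adjusted p = 0.0164 by the exact binomial test), and Mir23b was too, at -0.026 with an adjusted p of 0.0159 by the same test. Log2 ratios near 0 changed sign for Mir23a (-0.017 without Mir122) and for Mir23b (-0.0026 with TMM, -0.00063 without strand). These settings lowered the log2 ratios of Mir23a and Mir23b alike, by 0.028 (without Mir122), 0.0041 (TMM) and 0.0022 (without strand). No paired analysis was possible because there is 1 group. Leaving out a pup gave no comparison between pups.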
